A study of Mus musculus with 4 samples.

Results

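The comparison described here sets a melanoma tumour taken 24 h after doxycycline was withdrawn against a tumour kept on the drug. It uses 2 of the 4 arrays of the series, chosen by their treatment labels, and covers 13525 genes that passed a filter on low intensity, of 18193 genes with a single-symbol probe set. Each side is 1 array, so no difference has a replicate error and no test was made. All differences describe these arrays, and an effect of withdrawal cannot be told apart from a difference between mice or tumour pieces.

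RNA was measured in allografts of iNRAS-475, a mouse melanoma line whose NRAS is under doxycycline control, grown in the dermis of nude mice. Nude mice are athymic and lack most mature T cells but keep macrophages and NK cells, and every group shared this host and this line. All mice had drunk water with 2 mg/ml doxycycline while the tumours reached 200 to 500 mm3 after 6 weeks. The control tumour stayed on the drug, and the other tumours were harvested 24, 48 or 72 h after withdrawal; the labels give neither the strain background nor the age or sex of the mice, nor the promoter of the inducible gene. Affymetrix arrays gave 1 intensity per probe set, from RNA of a tumour piece of about 50 mg that was not sorted into cell types, with the skin trimmed off.

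Doxycycline control of this kind ties an oncogene to the drug, so that withdrawal stops new transcription of the oncogene while its protein and the RNAs of its targets decay at their own rates. NRAS signals through RAF, MEK and ERK kinases, which drive feedback phosphatases, immediate early factors and entry into the cell cycle. Tumours also hold host cells, and interferon gamma, a cytokine of T and NK cells, is known to raise MHC class II genes through the coactivator CIITA and to raise the immunity-related (IRG) and guanylate-binding (GBP) GTPases. In bulk tissue, more or fewer cells of a type and more or less RNA per cell cannot be told apart.

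The 24 h tumour differed from the control in a small number of genes, and most of the greatest differences were upward. The highest were the antigen presentation genes H2-Aa, Cd74 and H2-Ab1 and the GTPase Iigp1, followed by Acta1, skeletal muscle actin, and then other genes, among them further IRG and GBP genes, macrophage genes, and Rrm2 and Mcm6 of DNA synthesis. The 9 lowest were haptoglobin, urocortin 2, the WNT modulator Sfrp2, the fat cell genes Fabp4 and Adipoq, the neurofilament gene Nefm, Angptl4, Sdc4 and Cryl1. On the scale log2(intensity + 32), which understates differences of dim genes, 36 genes (0.266% of 13525) were 2-fold higher, a difference of at least 1, and 9 (0.0665%) were 2-fold lower. At a difference of 0.5 in size, 287 genes (2.12%) were higher and 124 (0.917%) were lower. The median over all genes was 0.00, 49.0% lay above 0, 43.0% below, and 8.02% had exactly equal values on both arrays. Just inside the upper limit were Cxcl9 (1.001), AU020206 (1.01) and Ccl12 (1.01), and just outside it Herc3 (0.997), Nup160 (0.99) and H2-D1 (0.97). Just inside the lower limit were Cryl1 (-1.01), Adipoq (-1.01) and Sdc4 (-1.03), and just outside it Sparcl1 (-0.999), Thbs4 (-0.98) and Akap12 (-0.955).

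**Figure D1:**
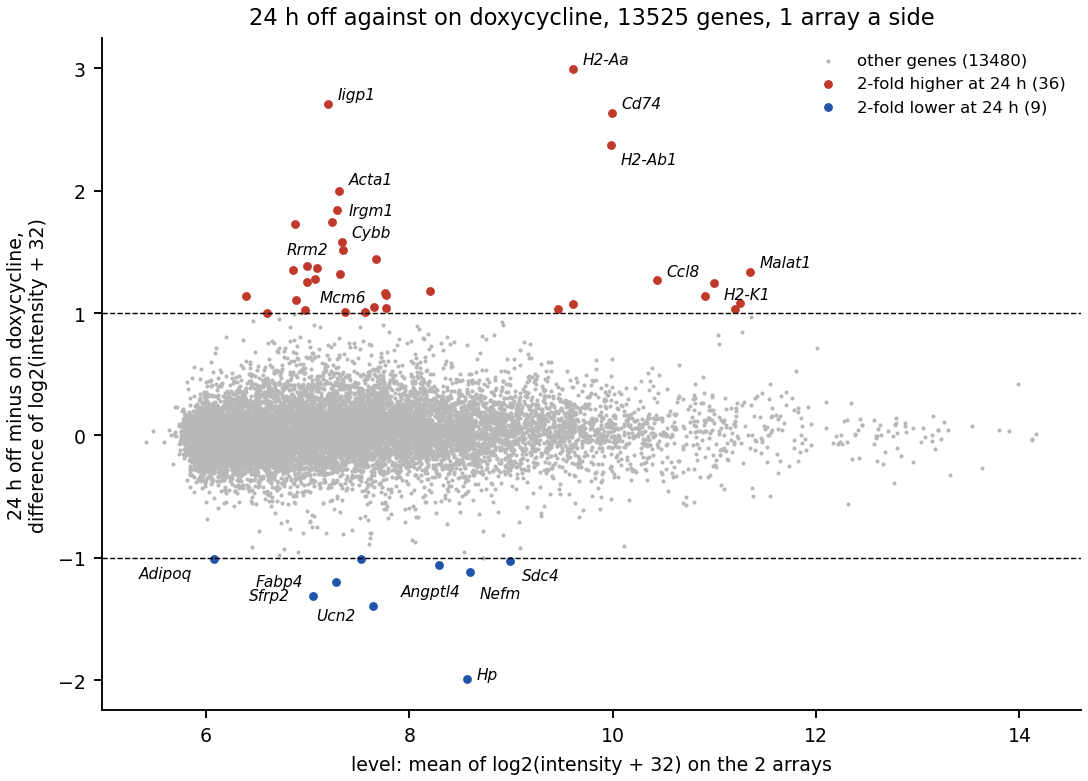
Each point is 1 of 13525 genes; the x axis is its mean log2(intensity + 32) on the control and 24 h arrays and the y axis the 24 h minus on difference on that scale. The 36 genes at or above 1 are red and the 9 at or below -1 are blue, with H2-Aa at 2.995 the highest and Hp at -1.99 the lowest.

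The control array had a median intensity of 33.4 and the 24 h array one of 33.3, with medians between 33.3 and 34.0 over the series. The labelled tissue was checked against melanocyte genes: Sox10, a factor of the neural crest lineage, read 3771 on the control array and 3613 on the 24 h array, above at least 99.5% of probe sets. The pigment genes Tyr, Tyrp1, Dct and Mlana were dim on both arrays, between 14.4 and 34.7, so the data showed Sox10 but not the enzymes of pigment synthesis. Mitf read 50.3 and 56.5, and Pmel 73.1 and 49.8.

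Promoters of chosen class II, GTPase and DNA replication genes are shown first, with the short motifs that these groups are known for. The genes shown were chosen by hand, and a window is printed only where it held a match. Other genes that held a match, such as H2-Eb2 and Mcm7, are not printed, so the windows are examples. Sequences are the 150 bases before the gene start from RefSeq, build GRCm38.p6, 5′ to 3′ on the gene's strand, with motif matches in capitals; motifs were searched on both strands in the 250 bases before the start, and a gene counted if any of its listed starts held a match. The Y box of MHC genes, CTGATTGG, holds an inverted CCAAT, and 5.83% of 10820 genes with a promoter entry had it. Of 9 class II genes, 5 had an entry (Cd74, H2-Ab1, Ciita and H2-Ea did not), and H2-Aa, H2-Eb1 and H2-Eb2 held the Y box. It was also held by 3 of 10 class I genes, 6 of 28 DNA replication genes and 6 of 23 G2/M genes with an entry. The shorter CCAAT was held by all 5 class II genes and by 39.5% of all genes with an entry. The 24 h minus on difference of H2-Aa was 2.995, that of H2-Eb1 was 0.46 and that of H2-Eb2 was 0.01, so genes holding the same letters stood at different distances from the control.
H2-Aa, chr17:34287824-34287973, minus strand: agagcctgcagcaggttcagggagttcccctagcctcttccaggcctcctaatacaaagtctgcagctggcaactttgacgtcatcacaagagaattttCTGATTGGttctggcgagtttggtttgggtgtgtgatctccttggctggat
H2-Eb1, chr17:34305717-34305866, plus strand: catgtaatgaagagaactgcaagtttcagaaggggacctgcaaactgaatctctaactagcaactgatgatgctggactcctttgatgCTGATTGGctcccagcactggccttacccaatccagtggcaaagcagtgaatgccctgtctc

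The interferon-stimulated response element, searched as GAAA, any 2 bases and GAAA again, was held by 3.11% of all such genes and by 6 of the 7 IRG and GBP genes with an entry (Iigp1 and Gbp6 had none). The 6 genes were Irgm1, Irgm2, Igtp, Gbp2, Gbp3 and Gbp7; Ifi47 held no match, although its difference was 1.31 (Ifi47 intensity 69.5 and 221). Irgm1 and Gbp3 each held 2 overlapping matches in the window shown. Their differences were 1.84 and 0.34, that of Gbp3 the smallest of the group. Igtp and Irgm2 share a run of 29 identical bases that contains the match, and a longer one of 38 bases without it. The same letters were held by 7 of the 15 type I interferon-stimulated genes with an entry, a list with a median difference of 0.06. TTTGAA, searched as the CHR motif of cell cycle genes, was held by 7 of 23 G2/M genes with an entry and by 12.9% of all such genes. Of the 7 GTPase genes, 4 held it. The gamma-activated site, TTC, any 3 bases and GAA, was held by 3 of the 7, against 7.01%. A match describes letters in a window, not binding.
Irgm1, chr11:48871421-48871570, minus strand: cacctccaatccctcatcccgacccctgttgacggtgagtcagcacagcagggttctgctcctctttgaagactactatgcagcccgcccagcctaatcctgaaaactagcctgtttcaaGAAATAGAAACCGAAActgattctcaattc
Igtp, chr11:58199406-58199555, plus strand: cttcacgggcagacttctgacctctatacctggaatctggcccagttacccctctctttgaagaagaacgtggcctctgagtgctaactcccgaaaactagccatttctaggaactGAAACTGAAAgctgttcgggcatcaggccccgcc
Irgm2, chr11:58214827-58214976, plus strand: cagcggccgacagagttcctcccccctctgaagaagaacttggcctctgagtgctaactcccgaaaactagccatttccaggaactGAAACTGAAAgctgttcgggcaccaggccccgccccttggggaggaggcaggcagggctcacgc
Gbp2, chr3:142620513-142620662, plus strand: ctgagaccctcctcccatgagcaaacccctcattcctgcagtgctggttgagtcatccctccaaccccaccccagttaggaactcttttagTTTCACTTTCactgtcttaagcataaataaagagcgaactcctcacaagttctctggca
Gbp7, chr3:142530186-142530335, plus strand: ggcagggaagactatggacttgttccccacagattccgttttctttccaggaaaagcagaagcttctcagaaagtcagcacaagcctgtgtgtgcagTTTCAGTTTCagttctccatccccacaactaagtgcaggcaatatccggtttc
Gbp3, chr3:142559894-142560043, plus strand: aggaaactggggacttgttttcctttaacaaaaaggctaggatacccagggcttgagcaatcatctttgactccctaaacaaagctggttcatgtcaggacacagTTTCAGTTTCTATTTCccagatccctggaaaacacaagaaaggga

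E2F factors control S phase genes, and their site was searched as TTTGGCGC, TTTCGCGC, TTTGGCGG or TTTCCCGC, letters that can overlap one another. It was held by 3.87% of genes with a promoter entry, by 8 of 28 DNA replication genes and by 0 of 9 nucleotide synthesis genes, Rrm2 among them. Mcm6, the replication gene furthest above the control, held 3 matches in the window shown. Mcm5, at 0.90, and Orc1, a subunit of the origin recognition complex at only 0.14, held 1 each there.
Mcm6, chr1:128359706-128359855, minus strand: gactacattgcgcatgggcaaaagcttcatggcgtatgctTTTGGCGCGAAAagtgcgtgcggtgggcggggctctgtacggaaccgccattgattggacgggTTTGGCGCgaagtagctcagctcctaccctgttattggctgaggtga
Mcm5, chr8:75109359-75109508, plus strand: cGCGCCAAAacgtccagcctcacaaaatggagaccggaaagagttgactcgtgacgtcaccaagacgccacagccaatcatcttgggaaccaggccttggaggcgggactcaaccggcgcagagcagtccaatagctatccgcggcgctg
Orc1, chr4:108579304-108579453, plus strand: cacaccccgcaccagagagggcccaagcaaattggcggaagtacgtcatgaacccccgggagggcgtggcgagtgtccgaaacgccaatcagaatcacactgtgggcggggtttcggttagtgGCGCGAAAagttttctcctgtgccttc

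Among class II genes the classical alpha and beta chains of one molecule and the invariant chain stood far above the control, and the others did not. H2-Aa, the alpha chain of the I-A molecule, gave an intensity of 245 with the drug and of 2179.6, 683 and 535 at 24, 48 and 72 h without it. H2-Ab1, its beta chain, read 414, 2272, 698 and 744 over the same arrays. Cd74, the invariant chain that occupies the peptide groove until loading, read 378, 2510.4, 837 and 943. The 24 h array was the highest of the 4 for all of them, and the 48 and 72 h arrays lay between it and the control. The differences at 24 h were 2.995, 2.37 and 2.63. Other probe sets of H2-Ab1 lay between 2.24 and 2.26. Those of H2-Aa were at 2.71, 2.00 and 0.36, the last from a probe set that read 8.58 and 20.2.

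H2-DMa, a chain of the peptide exchange factor, read 70.7 and 158 (0.88), although its other probe set was at -0.16, and H2-Eb1, the beta chain of I-E, read 48.0 and 77.8. Ciita, the class II coactivator, was dim at 27.0 and 34.3 (0.17). H2-Ea, the alpha chain of I-E, read 203 and 201 (-0.01), H2-Eb2 53.6 and 54.2, and H2-DMb2 54.5 and 36.1 (-0.34, with other probe sets at 0.03 and 0.06). Of the 9 class II genes tested, 7 lay above the control and 3 were 2-fold higher; the median difference was 0.46. Summed over these genes, intensity reached 1495 with the drug and 7524, 2692 and 2692 on the 24, 48 and 72 h arrays. Among the 12 listed members, H2-Oa and H2-Ob were below the level filter and H2-DMb1 was not used here.

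The class I pathway was higher as a group but by less. All of its 12 genes tested lay above the control, 8 by at least 0.5 and 2 by at least 1, with a median of 0.69. Psmb8, an immunoproteasome subunit that shapes peptides for class I, read 92.1 on doxycycline and 305, 156 and 196 on the 24, 48 and 72 h arrays (1.44 at 24 h), and its other, dim probe set was at 0.07. H2-K1, a class I heavy chain, read 1293, 3117, 2714 and 2933 (1.25 at 24 h). For H2-K1 the 24 h array was the highest, but the 48 and 72 h arrays were close to it. Other H2-K1 probe sets lay at 1.16, 1.03 and 0.07, and H2-K1 and H2-D1 are near-identical, so hybridisation could be shared between them. H2-D1, whose other probe sets spanned -0.01 to 1.01, stood at 0.97 with the brightest. The smallest difference was that of Psme1, a proteasome activator, at 0.375 (260 and 346 on the control and 24 h arrays). Psmb9, the partner subunit of Psmb8, was at 0.89, Tapbp, which bridges class I to the peptide transporter, at 0.81 and B2m, the class I light chain, at 0.71. Other probe sets were at 0.24 for Tapbp and at 0.91 for B2m.

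The IRG and GBP GTPases, which act on the membranes of vacuoles that hold pathogens, were higher as a group. All 9 genes tested lay above the control, 8 of them by at least 1, and the median was 1.39. Summed over the genes, intensity reached 488 with the drug and 1945, 932 and 1441 on the 24, 48 and 72 h arrays. Iigp1 read 25.7, 345, 81.5 and 148 over the 4 arrays, the greatest difference of the group at 2.71, and its other probe set was at 1.12. Irgm1, a regulatory IRG protein, read 50.7, 264, 178 and 216 (1.84 at 24 h). Gbp2 read 50.6, 245, 154 and 133 (1.75), with its other probe set at 1.85. In these 3 genes the control was lowest and the 24 h array highest. Gbp6 read 32.7, 182, 88.5 and 194 (1.73 at 24 h), so the 72 h array was the highest, and its other, dim probe set was at 0.17. Irgm2 read 46.9 on the control array and 174 at 24 h, Ifi47 69.5 and 221, Gbp7 54.6 and 178, and Igtp 120 and 280.4. All of these genes read lower on the 48 h array than on the 24 h array, and 6 of the 9 had the 24 h array as the highest alone, against 22.2% of all genes. The other listed members (Tgtp1, Tgtp2, Gbp4, Gbp5, Gbp9 and Gvin1) were not used here, and members of these families share sequence, so the values of single genes are uncertain.

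**Figure D2:**
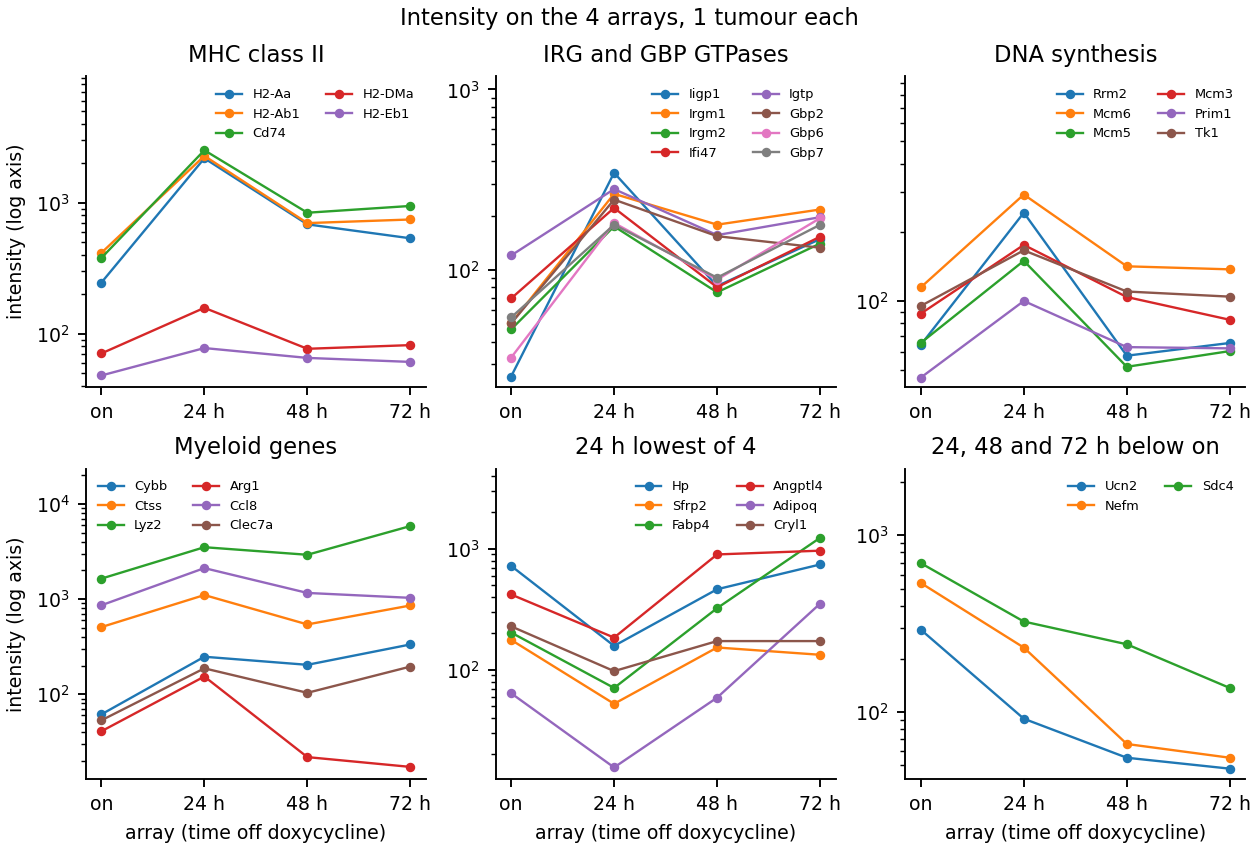
Intensity (log axis) of named genes on the arrays labelled on, 24 h, 48 h and 72 h, 1 tumour each, in 6 groups; lines join values of a gene and carry no time fit. Class II, GTPase and DNA synthesis genes shown are highest on the 24 h array except Gbp6 and Gbp7, Hp and 5 other genes are lowest on the 24 h array, and Ucn2, Nefm and Sdc4 are lower on each later array.

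Other interferon genes were less far apart. In a list of 10 genes of interferon gamma signalling, 8 lay above the control and the median was 0.31. Cxcl9, a chemokine induced by interferon gamma, read 36.8 on doxycycline and 106, 61.1 and 53.6 at 24, 48 and 72 h (1.001 at 24 h), with its other, dim probe set at 0.10. Irf1, a transcription factor that interferon gamma induces, read 418, 724, 529 and 714 (0.75). Cd274, which encodes the checkpoint ligand PD-L1, and Irf8 were both at 0.50, and Socs1, a feedback inhibitor, was at -0.05. Ifng itself was below the level filter, at 10.9 and 12.8 on the control and 24 h arrays (named after its value had been seen), and the receptor genes Ifngr1 and Ifngr2 differed by 0.09 and 0.00. Genes that type I interferon is best known to induce were close to the control at 24 h: 12 of 19 lay above it, 6 below, and the median was 0.06. The highest of them were Rtp4, at 0.76 (43.0 and 94.8), with another probe set at -0.04, and Oasl2, at 0.51 (32.04 and 59.1). None of the 19 was 2-fold higher at 24 h, which in a list this short is near the 0.266% of all genes. For 0 of them was the 24 h array the highest of the 4, against 22.2% of all genes.

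Macrophage genes were higher on the 24 h array. Of 21 markers tested, 20 lay above the control, 12 by at least 0.5 and 4 by at least 1, and the median was 0.62. The greatest differences were those of Cybb, the oxidase subunit of phagocytes, Lyz1 and Lyz2, the lysozymes, and Ctss, a protease that trims the invariant chain. Cybb read 61.4 on doxycycline and 248, 204 and 334 on the 24, 48 and 72 h arrays (1.58 at 24 h), with other probe sets at 0.57 and 0.88. Lyz2 read 1641, 3511, 2923 and 5858 (1.08), and Ctss read 508, 1103, 542 and 857 (1.07). Cybb and Lyz2 were highest at 72 h, whereas Ctss was highest at 24 h. Lyz1 stood at 1.14, but the probe sets of Lyz1 and Lyz2 are of near-identical genes and may share signal.

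Macrophage marker intensities summed to 9123 with the drug and to 16149, 12712 and 23271 on the 24, 48 and 72 h arrays. The class II sum was 5.03 times the control at 24 h and the macrophage sum 1.77 times. The class II sum rests on H2-Aa, H2-Ab1 and Cd74: without them the other 6 genes summed to 457 and 561, which is 1.23 times the control, and the class II median difference, 0.46, was below the macrophage median of 0.62. The part of macrophage RNA in the class II, GTPase and class I differences was not tested. Of the markers that define the cell type, Csf1r, the receptor of colony stimulating factor 1, read 708 and 1103 on the control and 24 h arrays (0.62). Adgre1, which encodes F4/80, read 187 and 225 (0.23), and Cd68 166 and 172 (0.04). These values were named for the check of the cell type. C1qa and C1qb, chains of complement C1q, were at 0.75 and 0.76, and Mrc1 had 277 on both arrays.

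Further myeloid genes were 2-fold higher outside that list or in others. Clec7a, the beta-glucan receptor dectin 1, read 53.2, 187, 103 and 195 over the 4 arrays (1.36 at 24 h). Ptprc, the pan-leukocyte marker CD45, read 24.6, 92.3, 71.6 and 114 (1.14), but its other, dim probe set was at -0.05. Arg1, an arginase of liver and of activated macrophages, read 40.8, 154, 21.8 and 17.2 (1.35). Arg1 was thus bright on the 24 h array only, and below the control at 48 and 72 h. The chemokine Ccl8 read 861, 2118, 1161 and 1031 (1.27), and Ccl12 read 101, 236, 67.7 and 79.8 (1.01), so both were highest at 24 h. Of 16 chemokines tested, 9 lay above the control and 6 below, and the median was 0.13, or -0.01 with a level filter at the 60th percentile. The lowest were Ccl6, which read 315 on doxycycline and 206 at 24 h (-0.55), and Ccl9, which read 310 and 219 (-0.44). Their other probe sets were at -0.13 and -0.03.

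Markers of other immune cells were mixed. The 10 markers of T and NK cells tested lay between -0.13 and 0.12, with a median of -0.02 and a summed intensity of 560.3 on the control and 545 at 24 h; Cd3g, Ncr1 and Xcl1 were below the level filter. Of 8 neutrophil markers 1 lay above the control (median -0.04, sums of 627 and 512), and of 9 dendritic cell markers 6 did (median 0.14), with the integrin Itgax, shared with macrophages, at 0.68. The B cell list had 4 genes tested, with 3 above the control. Ighm, the heavy chain of IgM, read 131 and 203 on the control and 24 h arrays (0.53), with other probe sets between -0.18 and 0.16, and Pax5, a B cell transcription factor, read 63.5 and 38.9 (-0.43), with its other probe set at 0.00. Of 7 mast cell markers 4 lay above it (median 0.13, or -0.07 without genes tied between arrays; sums of 469.6 and 525), and Cpa3, a mast cell protease, was at 0.60. Tpsab1, a mast cell tryptase outside that list, read 112, 292, 259 and 149 (1.17 at 24 h), whereas its neighbour Tpsb2 was at -0.05.

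**Figure D3:**
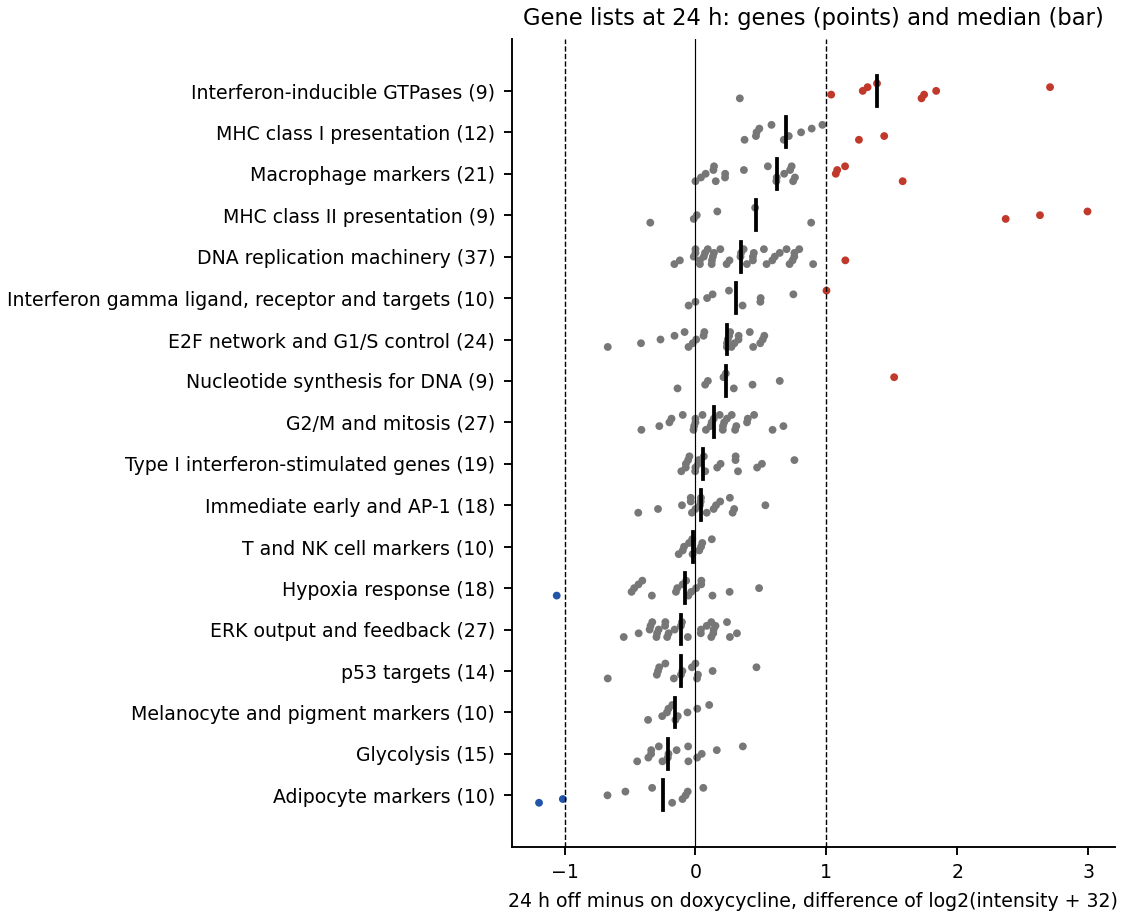
Each point is a gene of the list named on the y axis (number of genes tested in parentheses), placed by its 24 h minus on difference of log2(intensity + 32); the bar is the list's median and dashed lines mark -1 and 1. The IRG and GBP GTPases have the highest median, 1.39, adipocyte markers the lowest, -0.25, and the all-gene median is 0.00.

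DNA synthesis genes stood above the control on the 24 h array and near it on the 48 and 72 h arrays, which came from other tumours. Of 37 genes of the replication machinery tested, 32 lay above the control, 3 below and 2 were equal; 13 were higher by at least 0.5, 0 lower by that much, and the median was 0.35. The 24 h array was the highest of the 4 for 32 of the 37 (86.5%), against 22.2% of all genes. Their intensities summed to 5323 with the drug and to 7424, 5173 and 5014 on the 24, 48 and 72 h arrays, and medians against the same control were 0.00 for the 48 h array and -0.05 for the 72 h array.

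The subunits of the replicative helicase were among the highest of the list. Mcm6 read 115 on doxycycline and 293, 142 and 138 on the 24, 48 and 72 h arrays (1.14 at 24 h), with other probe sets at 1.04 and 0.05. Mcm5 read 65.6, 150.03, 51.5 and 60.4 (0.90), although its other probe sets spanned -0.15 to 0.49. Mcm3 read 88.1, 176, 104 and 82.8 (0.79). In all of these the 24 h array alone was far above the rest. Mcm4, Mcm2 and Mcm7 were higher by 0.76, 0.74 and 0.696 by their brightest probe sets. Other probe sets were at 0.62 for Mcm4, at 0.28 for Mcm2, between 0.39 and 0.45 for Mcm7 and between 0.04 and 0.70 for Mcm3. Of factors that load or accompany the helicase, Cdt1, the licensing factor, was at 0.72, Cdc45 at 0.44 and the origin recognition subunits Orc1 and Orc6 at 0.14 and 0.24, whereas the GINS subunits Gins1, Gins2, Gins3 and Gins4 lay between 0.03 and 0.13. Other probe sets were at 0.195 and 0.0 for Cdt1 and at 0.0 for Cdc45. Of polymerases and clamps, the primase Prim1 was at 0.76 with another probe set at 0.13. Pcna, the sliding clamp, was at 0.54 (726 and 1072), and the ligase Lig1 at 0.61. Pold2 (-0.12) and Chaf1b (-0.16) were lower, and Pold1 and Pola2 were equal.

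Of 9 genes of nucleotide synthesis, 8 lay above the control (median 0.23). Rrm2, the S phase subunit of ribonucleotide reductase, read 64.3, 244, 57.7 and 65.5 over the 4 arrays (1.52 at 24 h), with other probe sets at 0.84 and 1.19. Rrm2 was therefore close to the control on the 48 and 72 h arrays. Tk1, thymidine kinase, read 95.2, 167, 110.1 and 105 (0.64). Rrm1, the constant subunit, was at 0.07 with other probe sets at 0.42 and -0.01, and Umps, of pyrimidine synthesis, at -0.14. Dck and Tyms were below the level filter.

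Other cell cycle lists held the phases before and after. Of 27 G2/M genes 18 lay above it, 7 below, and the median was 0.14, with Mki67, a proliferation marker, at 0.67 (135 and 235) and Top2a, topoisomerase II alpha, at 0.59 (183 and 291). Other Top2a probe sets lay between -0.05 and 0.09. Of 24 genes of the E2F network and G1/S control 17 lay above the control (median 0.24). The highest was Dnmt1, the maintenance DNA methyltransferase, at 0.53. The lowest was Cdkn1a, the CDK inhibitor p21, which read 997 on doxycycline and 614, 614 and 587 on the 24, 48 and 72 h arrays (-0.67, with another probe set at -0.22). Cdkn1b, the related inhibitor p27, was at 0.51 with its other probe set at -0.31. Of 6 histone genes tested, H1f2, a linker histone, was 2-fold higher (164, 412, 522 and 657; 1.18 at 24 h), with other probe sets at -0.13 and 0.46.

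In the target pathway no gene tested was 2-fold different at 24 h, but only 0.266% of all genes were 2-fold higher and 0.0665% lower. In lists this short, a count of none is near the share of all genes. Of 16 components of the RAS, RAF, MEK and ERK chain tested, 9 lay above the control, 6 below and 1 was equal, with a median of 0.02, or -0.05 after quantile normalization. The lowest was Rras, a RAS-related GTPase, at -0.48 (814 and 575), and the highest was Nras. The brightest probe set of mouse Nras read 163 on doxycycline, 256 at 24 h and 163 at both 48 and 72 h (0.565 at 24 h), with other probe sets at 0.25 and 0.28. The labels name no sequence for the inducible NRAS, so these probe sets do not check the labels. Of 27 genes of ERK output and feedback tested, 11 lay above the control and 16 below; 1 was lower by at least 0.5, none was 2-fold different, and the median was -0.11. That gene was Plaur, the urokinase receptor, which read 403 on doxycycline and 266, 103 and 84.6 on the 24, 48 and 72 h arrays (-0.55 at 24 h). Spry4, a feedback inhibitor, was at -0.43 with other probe sets at -0.09 and 0.11, and Dusp6, an ERK phosphatase, at -0.34. Myc was the highest, at 0.32 (111, 146, 70.6 and 54.1), and Ccnd1, cyclin D1, was at 0.04 with other probe sets at 0.196 and 0.506. For the same list the median was -0.89 at 48 h and -1.24 at 72 h, against the same control array.

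The 9 genes that were 2-fold lower comprised 6 that were lowest on the 24 h array and 3 that were lower still at 48 and 72 h. The 24 h array was the lowest alone for 21.2% of all genes, and the 9 were picked for a 24 h value below the control. Hp, haptoglobin, a plasma protein that binds free haemoglobin, read 723 on doxycycline and 158, 463 and 742 on the 24, 48 and 72 h arrays (-1.99 at 24 h). Of 12 acute phase and complement genes 5 lay above the control and 7 below, with a median of -0.07. Serpina3n, a protease inhibitor of the acute phase, read 1481, 777, 1818 and 1741 (-0.90), with the 24 h array again the lowest. The lipopolysaccharide binding protein Lbp was at -0.54, with another probe set at 0.17. Ceruloplasmin (Cp) went the other way, at 0.70, though its other probe sets spanned -0.08 to 0.67.

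Fat cell genes were lower at 24 h. Of 10 adipocyte markers 9 lay below the control, 4 by at least 0.5 and 2 by at least 1, with a median of -0.25 and summed intensities of 2264, 1763, 2381 and 5509 over the 4 arrays. Fabp4, a fatty acid binding protein, read 203, 70.8, 323 and 1234 (-1.19 at 24 h), with its other probe sets, some of them dim, between -0.54 and -0.04. Adipoq, adiponectin, read 64.05, 15.6, 58.9 and 352 (-1.01). Angptl4, an inhibitor of lipoprotein lipase that is also induced in hypoxia, read 420, 185, 899 and 966 (-1.06), and its other, dim probe set was at 0.01. Each of these genes was lowest at 24 h and highest at 72 h. Car3, a carbonic anhydrase of fat and muscle, was at -0.67 and Lpl, lipoprotein lipase, at -0.54. Their other probe sets were closer to the control, between -0.17 and 0.03 for Car3 and at -0.15 for Lpl. The part of a different fat content of the tumour pieces in these values was not tested.

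Sfrp2, a secreted modulator of WNT, read 177, 52.4, 153 and 133 (-1.31 at 24 h), and of 12 WNT modulators 8 lay below the control (median -0.14). Cryl1, a metabolic dehydrogenase, read 229, 97.6, 173 and 173 (-1.01), but its other probe sets lay between -0.16 and 0.07. Of 19 fibroblast and matrix genes, 9 lay above the control and 10 below, with a median of -0.05. The lowest were Lum at -0.86, Dcn at -0.73, Dpt at -0.72 and Pi16 at -0.62, with other probe sets of Dcn at -0.17 and of Pi16 at -0.07. The highest was Aspn, asporin, which read 56.4, 148, 561 and 460 (1.03 at 24 h), with another probe set at 0.52.

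Ucn2, urocortin 2, a peptide of the corticotropin-releasing factor family, read 292, 91.6, 55.0 and 47.7 (-1.39 at 24 h). Nefm, a neurofilament subunit, read 537, 231, 65.9 and 55.0 (-1.11). Sdc4, a cell surface proteoglycan, read 696, 325, 242 and 137 (-1.03), but its other probe set was at 0.21. These 3 genes were lower on each later array. Of 14 neuropeptide and hormone genes 11 lay below the control, with a median of -0.08, and Penk, proenkephalin, was at -0.77.

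Lists of muscle, vessel and smooth muscle genes each held members above and below the control. Acta1, skeletal muscle actin, read 47.5 on doxycycline and 284, 45.6 and 1353 on the 24, 48 and 72 h arrays (1.99 at 24 h). Of 17 skeletal muscle markers 10 lay above the control and 5 below, and the median was 0.02; Tnnc2, fast troponin C, was at 0.72, while the fast myosin gene Myh4 read 11.5 and 9.88 and Ckm, muscle creatine kinase, 96.9 on both arrays. Muscle marker intensities summed to 970.0 with the drug and to 1327, 852 and 7218 on the 24, 48 and 72 h arrays. Of 11 endothelial markers 10 lay below the control, with a median of -0.07. Acta2, smooth muscle actin, read 462 and 980.1 (1.03), but both of its other probe sets, which were dim, lay at -0.04 and 0.03, and the 8 pericyte and smooth muscle genes had a median of 0.33, or -0.03 with no level filter.

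Probe sets of a gene share its RNA and are no replicates, but their spread bears on how firmly each of the 45 genes can be stated. Of the 36 higher genes, 17 had 1 probe set and 19 had others; in 3 of the 19 all the others were also 2-fold higher, in 7 they were all at least 0.5, and in 9 some other was below 0.2, values under 0 included. All 4 of the lower genes that had other probe sets had one above -0.2, values over 0 included. Of the 43 other probe sets, 12 read under 32 on both arrays, where the scale holds differences near 0. The 24 h array was the highest alone for 22 of the 36 higher genes, the 72 h array for 10 and the 48 h array for 3, with Gbp7 equal at 24 and 72 h. The control was the lowest for 32. Over all 13525 genes tested, the 24 h array was the highest alone for 22.2% and the control the lowest alone for 3693. The 36 genes were picked for a 24 h value above the control, so these ranks are largely set by that choice.

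**Figure D4:**
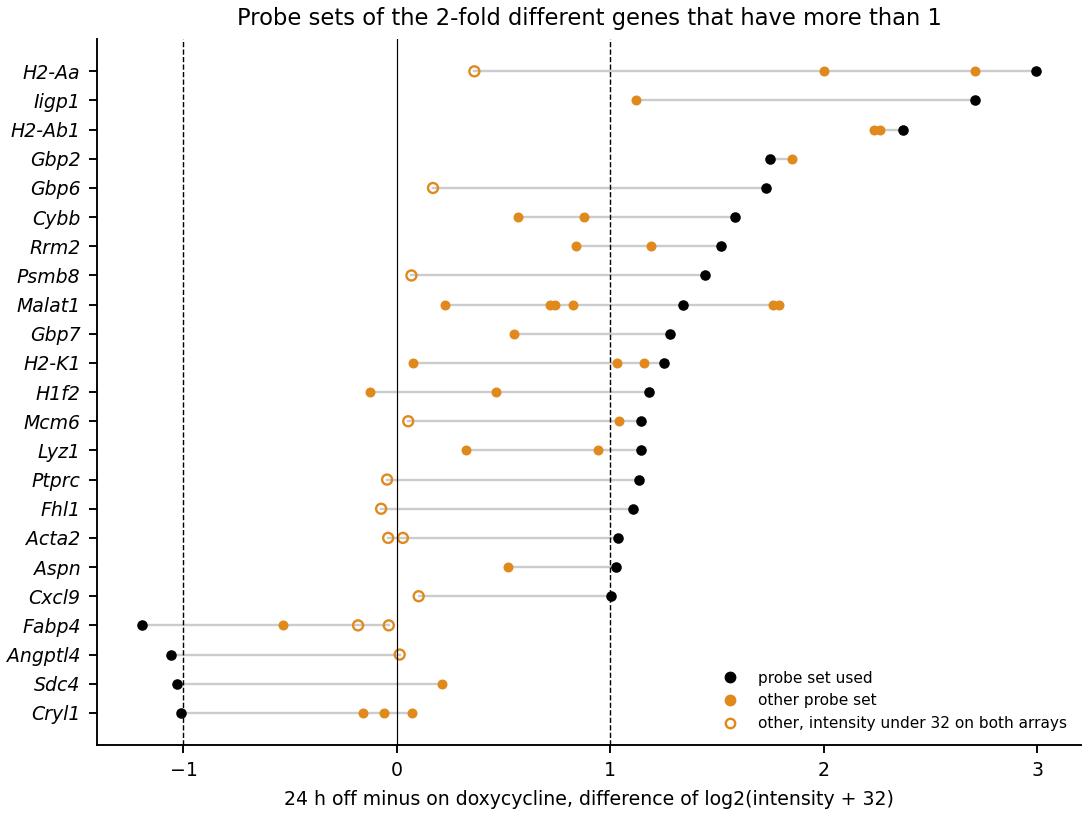
For the 23 genes 2-fold different at 24 h that have more than 1 probe set, points give each probe set's 24 h minus on difference of log2(intensity + 32): black for the brightest, which was used, orange for others, open where the intensity was under 32 on both arrays. All probe sets of Iigp1, H2-Ab1 and Gbp2 lie past 1, whereas the other probe sets of Sdc4 and Cryl1 lie between -0.16 and 0.21.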

How the data were processed

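The authors deposited linear intensity values, 1 for each probe set of an array. MAS5 and RMA appear in the submitters' processing notes without version or role; which of them made the values is not given in the sources, and 12.4% of probe sets had exactly equal values on the control and 24 h arrays, for a reason not known. Of 45037 probe sets, 34945 had a single gene symbol in the platform annotation, 932 several and 9160 none there; the first kind was used. The brightest probe set of a gene (mean log2(intensity + 32) over 4 arrays) was taken, genes below the 40th percentile of that level (an intensity of about 24.8) were left out, and the 24 h minus on difference was computed with no further normalization. The pseudocount of 32 lies near the median intensity. With 1 array a group no p-value was computed, and the number of arrays, 4, limits precision.

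Members and the 44 gene lists were chosen with earlier results of these data known. Named were Nras, all 2-fold different genes, up to 6 members of each list with the greatest difference, members of the class II, replication, nucleotide synthesis and ERK lists, any of which could be named, and genes nearest the 2-fold limit; others are marked in the text or stand in the count they illustrate. Promoters came from RefSeq (GRCm38.p6), matched by symbol for 10820 genes. Alternatives were quantile normalization, median centring, other level filters, the mean over probe sets, leaving out _x_at and _s_at probe sets, pseudocounts of 0, of 8 and of 4 times 32, and leaving out genes tied between arrays. Python 3.11.15, pandas 2.3.3 and NumPy 2.4.6 were used.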

Additional observations from a re-analysis of the deposited data

How the results depend on the processing

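With 1 array a side there is no replicate error, and no paired analysis was possible because each group is 1 array. The pseudocount moved the counts most. The count of 2-fold higher genes, 36, was 12 with a pseudocount 4 times as large and 67 with none; that of 2-fold lower genes, 9, was 18 with a pseudocount of 8, 1 with the larger one, 27 with none and 5 with the mean over a gene's probe sets. Of the 45 genes, 36 stayed 2-fold different after quantile normalization, 29 when probe sets were averaged and 13 with the larger pseudocount, and 38 of the 40 measured did so without _x_at and _s_at probe sets. With the larger pseudocount and with none, the median was 0.17 and 0.54 for DNA replication and 0.23 and 0.70 for MHC class II. With the larger one it was 0.45 for MHC class I and 0.82 for the IRG and GBP GTPases, and with none -0.28 for pigment genes. The class II median was also 0.17 with no level filter and 0.88 with one at the 60th percentile, where fewer dim members entered. The adipocyte median was -0.43 with that filter and -0.54 without tied genes. Of lists with a median of at least 0.1 in size, the sign turned for chemokines (-0.01 with the 60th percentile filter), mast cell markers (-0.01 with the mean over probe sets and -0.07 without tied genes) and pericyte and smooth muscle genes (-0.03 with no level filter); the cause was not tested. Of 439 list medians under the alternatives, 382 kept their sign and moved by at most 0.1; 16 turned sign, 12 of them in lists whose median was under 0.1 in size. Intensities near 32 or below have compressed differences on this scale.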

Other observations

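Some genes of nuclear noncoding RNAs and of splicing factors were also above the control at 24 h. They belong to no list, and most were looked up after the 2-fold genes had been seen. Malat1, a long noncoding RNA of nuclear speckles, read 1615 on doxycycline and 4136, 4443 and 4107 on the 24, 48 and 72 h arrays (1.34 at 24 h), with 6 other probe sets between 0.22 and 1.79. Srsf5, a splicing factor of the same speckles, read 1620, 3340, 3638 and 3072 (1.03). Both were similar on the 24, 48 and 72 h arrays and lowest on the control. Neat1, the scaffold of paraspeckles, was at 0.84, but its other probe set was at -0.24. Srsf3 and Srsf6, related splicing factors, were at 0.42 and 0.35.

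Arg1 stood apart from other genes of alternatively activated macrophages, which were looked up after Arg1 had been seen. Retnla read 48.5 and 49.5 on the control and 24 h arrays, a difference of 0.02, and Mgl2 26.4 and 36.3, a difference of 0.23. Nos2, the inducible nitric oxide synthase, read 63.97 and 52.0, a difference of -0.19. Other actins also differed less than Acta1: Actb, a cytoplasmic actin, was at 0.42 with another probe set at 0.03, and Actg1 was at 0.01. The retinoic acid binding protein gene Crabp1 read 716, 364, 192 and 76.6 over the 4 arrays, -0.92 at 24 h. Mest, an imprinted gene, read 108, 258, 193 and 415 (1.05 at 24 h), and Fhl1, a LIM domain gene, 48.5, 142, 79.8 and 150 (1.11), with another probe set at -0.07.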
